A study of Mus musculus with 6 samples.

Results

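The genes described here are the Toll-like receptors Tlr1, Tlr2, Tlr3, Tlr4, Tlr5, Tlr6, Tlr7 and Tlr9, the lipopolysaccharide co-receptor gene Cd14 and the adaptor gene Myd88. They were chosen by symbol, through the RefSeq accession of an array probe. All 10 genes were found, on 11 of the 39429 non-control probes, among 20832 named genes. Each gene had 1 probe named in this way except Tlr7, which had 2. The 12002 probes left unnamed were not searched for these genes. The samples were 3 Rb deleted and 3 Rb intact cultures of primary prostate cells, each hybridised to its own one-colour array. All cultures were p53-/-, carried a floxed Rb gene, and grew in a serum-free prostate medium with added growth factors. Rb deleted cultures (p53-/- Rb∆f/∆f) had received an adenovirus carrying Cre recombinase, and Rb intact cultures (p53-/- Rbf/f) an adenovirus carrying lacZ, so virus and Rb status cannot be told apart. RNA was taken 48 hours after infection, and the series design describes 3 independent experiments, so p-values measure the spread between these.

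Toll-like receptors recognise molecules of microbes and of damaged cells. Tlr4, with Cd14 and the secreted protein MD-2, binds lipopolysaccharide, Tlr2 pairs with Tlr1 or Tlr6 to bind lipopeptides, and Tlr5 binds flagellin at the cell surface, while Tlr3, Tlr7 and Tlr9 bind nucleic acids in endosomes. All of these receptors except Tlr3 signal through Myd88, which passes the signal to Irak kinases, Traf6 and NF-kB and so to cytokine genes. They are best known from macrophages and dendritic cells, but epithelial cells and fibroblasts also express several of them.

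The scanner software marked 58.9% to 63.3% of an array's probes as well above background, and saturation was absent (0 spots). Rb1, the deleted gene, stood at -2.96 ± 0.03 in Rb deleted and -1.01 ± 0.02 in Rb intact cultures (SD, n = 3 each). These and all later levels are log2 intensities after subtraction of the 75th percentile of the same array, so that 0 is as bright as the probe at that percentile. Probes differ in brightness for the same amount of RNA, so levels are compared between arrays only. Rb intact 1 lay apart from the other Rb intact arrays: the median absolute log2 difference over the 13729 tested genes was 0.19 from Rb intact 2 and 0.18 from Rb intact 3, against 0.06 between Rb intact 2 and 3 and 0.06 to 0.07 between Rb deleted arrays. All Rb intact arrays and Rb deleted 1 shared a slide, and Rb deleted 2 and 3 lay on another. Among cell type markers, the epithelial genes Epcam, Cdh1 and Krt15 and the luminal gene Hoxb13 were not well above background on any array. The epithelial genes Krt8, Krt14, Krt18 and Trp63 were so on all 6 arrays, as were 7 of 8 mesenchymal genes, among them Vim and Col1a1. Of 5 endothelial genes, 3 were also so on all 6 arrays. These were Pecam1 (difference 0.29, limma adjusted p = 0.105), Cdh5 (-0.12, adjusted p = 0.261) and Kdr (-0.09, adjusted p = 0.599). The summed epithelial level ranged from 11.7 to 13.4 in Rb deleted and from 13.6 to 15.1 in Rb intact cultures, as linear intensity in units of the 75th percentile, and 84.7% to 86.9% of it was Krt18 (difference -0.16, limma adjusted p = 0.223). Trp63 fell by 0.25 (limma adjusted p = 0.0492), while Krt8 gave 0.43 (adjusted p = 0.062) and Krt14 0.07 (adjusted p = 0.731). The summed mesenchymal level ranged from 242 to 268 in Rb deleted and from 272 to 286 in Rb intact cultures. Of its 7 tested genes Acta2, a smooth muscle actin gene, fell by 1.34 (limma adjusted p = 0.00214). The others ranged from -0.28 for Col3a1 (adjusted p = 0.0743) to 0.02 for Pdgfra, none with an adjusted p under 0.05. Of all tested genes, 10.4% fell at that threshold. The part of such cells in the results below was not tested. Expression was measured in bulk, so fewer cells of a type and less RNA per cell cannot be told apart.

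Deletion of Rb went with a small rise of Cd14 and small falls of Tlr6 and Tlr4. Of the 10 genes, 9 passed the detection filter, which asked that all 3 arrays of one group or the other give a signal well above background. Of those 9, Cd14 rose and Tlr4 and Tlr6 fell in limma's test with an adjusted p under 0.05 over all tested genes, that is 3 of 9, while 20.6% of all 13729 tested genes passed it. The groups did not overlap for 6 of the 9, Cd14, Tlr2, Tlr4, Tlr5, Tlr6 and Myd88, against 45.3% of all tested genes. The median difference, Rb deleted minus Rb intact, was 0.02 for these 9 genes and 0.02 for all tested genes. The filter itself lets a gene pass through the group in which it is high, which was the case for Tlr5 alone.

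**Figure D1:**
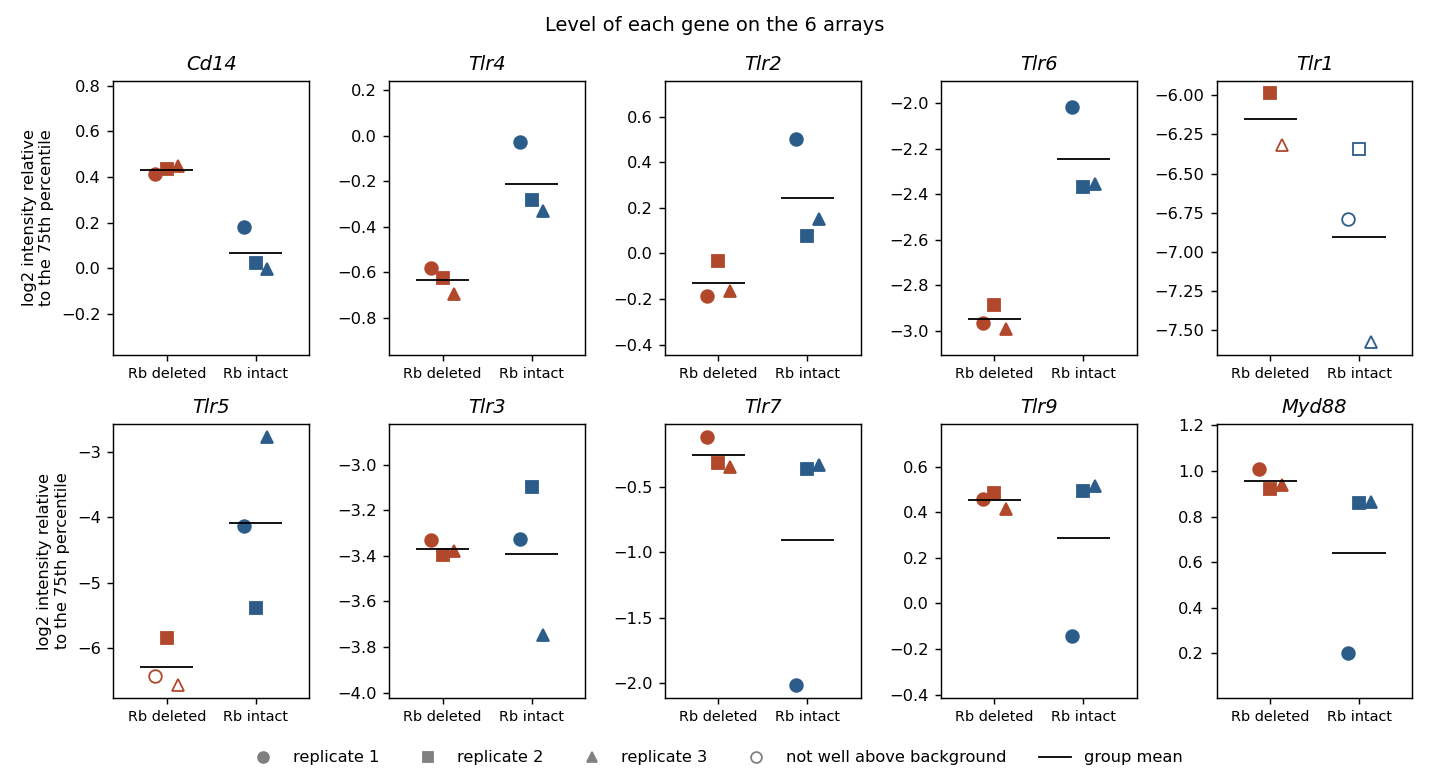
Level of each gene (log2 intensity minus the 75th percentile of its array, vertical axes with separate ranges) in the 3 Rb deleted arrays, in red on the left, and the 3 Rb intact arrays, in blue on the right; marker shapes give the replicate number, open symbols were not well above background, and lines are group means. Cd14 lies higher and Tlr4 and Tlr6 lie lower in all Rb deleted arrays, and for Tlr7, Tlr9 and Myd88 the circle of Rb intact 1 lies below all other arrays; the outlying Tlr1 spot of Rb deleted 1 is left out.

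Among the surface receptors, the lipopolysaccharide receptor and its co-receptor moved in opposite directions. Cd14 stood at 0.41, 0.43 and 0.45 in Rb deleted 1, 2 and 3, against 0.18, 0.02 and -0.0058 in Rb intact 1, 2 and 3. The Rb deleted arrays lay close together and all above the Rb intact arrays. Cd14 rose by 0.37 ± 0.07 (SE of the fit), or 1.29-fold (limma adjusted p = 0.0133). Its values were 0.43 ± 0.02 in Rb deleted and 0.07 ± 0.10 in Rb intact cultures (SD, n = 3 each). With normexp background correction the difference was 0.23 and missed the threshold (limma adjusted p = 0.0743). Cd14 also missed it with replicate number as a block (limma adjusted p = 0.0524), where 11.9% of all tested genes were called.

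Tlr4, the signalling receptor for lipopolysaccharide, stood at -0.58, -0.62 and -0.69 in Rb deleted 1, 2 and 3, against -0.03, -0.28 and -0.33 in Rb intact 1, 2 and 3. The groups did not overlap, and Rb intact 1 was the highest array. Tlr4 fell by 0.42 ± 0.09 (SE), or 1.34-fold (limma adjusted p = 0.0244). Without Rb intact 1 the difference was -0.33 (limma adjusted p = 0.00724), and that of Cd14 was 0.42 (limma adjusted p = 0.00163). Tlr4 missed the threshold when Rb intact 2 or any Rb deleted array was left out (limma adjusted p between 0.0544 and 0.0998). Cd14 missed it when Rb intact 2 or 3 or Rb deleted 2 or 3 was left out (adjusted p between 0.0505 and 0.0656). In fits that left out Rb deleted 1, 2 or 3 the test called 12.8%, 9.04% and 9.06% of all tested genes, and in those without Rb intact 1, 2 or 3 it called 37.6%, 12.4% and 12.1%. Ly96, which encodes MD-2, the protein that holds lipopolysaccharide on Tlr4, stood at 0.84, 0.89 and 0.89 in Rb deleted 1, 2 and 3 and at 0.99, 1.09 and 1.03 in Rb intact 1, 2 and 3, and its difference of -0.16 ± 0.05 (SE) missed the threshold (limma adjusted p = 0.0778). Lbp, the serum protein that hands lipopolysaccharide to Cd14, gave 0.10 ± 0.09 (SE, adjusted p = 0.481).

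Tlr6, a partner of Tlr2, had the smallest p of the 9 genes. It stood at -2.97, -2.88 and -2.99 in Rb deleted 1, 2 and 3, against -2.02, -2.37 and -2.36 in Rb intact 1, 2 and 3. All Rb deleted arrays lay below all Rb intact arrays, by a gap wider than the range within either group. Tlr6 fell by 0.70 ± 0.11 (SE), or 1.62-fold (limma adjusted p = 0.00709), and the fall stayed past the threshold when any single array was left out, with differences from -0.76 to -0.59.

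Tlr2 lay lower in the Rb deleted arrays but did not pass the test with all arrays. Its levels were -0.19, -0.03 and -0.16 in Rb deleted 1, 2 and 3, against 0.50, 0.07 and 0.15 in Rb intact 1, 2 and 3. The groups did not overlap, and Rb intact 1 was again the highest. The difference was -0.37 ± 0.12 (SE, limma adjusted p = 0.0773), and -0.24 without Rb intact 1 (adjusted p = 0.0344), where 37.6% of all tested genes were called. The Tlr2 probe was printed on 10 spots of each array, and the SD of single spots lay between 0.03 and 0.06, so the spread between spots was smaller than the gap between Rb intact 1 and any other array.

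Tlr1, the other partner of Tlr2, was at the edge of detection and was not tested. Its spot on Rb deleted 1 was marked as outlying and left out. The remaining levels were -5.99 in Rb deleted 2 and -6.32 in Rb deleted 3, against -6.79, -6.34 and -7.58 in Rb intact 1, 2 and 3, and only the signal of Rb deleted 2 was well above background. Tlr1 and Tlr6 are similar in sequence and neighbours in the RefSeq table, and whether their probes share signal was not tested.

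RefSeq promoter windows, with GRCm38.p6 coordinates, were at hand for 7 of the 10 genes, not for Cd14, Tlr4 and Tlr7. The 250 bases before the start are printed for Tlr6, which has 2 starts, for its partner Tlr2, and for Myd88, their shared adaptor, since the text turns on these. Capitals mark matches, on either strand, to an interferon-stimulated response element, a GC box (GGGCGG) or a TATA box (TATAAA). The windows are chr5:64959167-64959416 and chr5:64960049-64960298 for Tlr6, chr3:83841609-83841858 for Tlr2 and chr9:119340019-119340268 for Myd88, all read from the minus strand.
Tlr6, start at the lower coordinate: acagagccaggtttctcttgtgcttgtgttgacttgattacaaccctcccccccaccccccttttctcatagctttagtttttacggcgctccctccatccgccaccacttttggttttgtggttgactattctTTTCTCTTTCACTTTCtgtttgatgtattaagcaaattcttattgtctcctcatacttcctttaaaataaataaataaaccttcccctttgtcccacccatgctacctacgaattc
Tlr6, start at the higher coordinate: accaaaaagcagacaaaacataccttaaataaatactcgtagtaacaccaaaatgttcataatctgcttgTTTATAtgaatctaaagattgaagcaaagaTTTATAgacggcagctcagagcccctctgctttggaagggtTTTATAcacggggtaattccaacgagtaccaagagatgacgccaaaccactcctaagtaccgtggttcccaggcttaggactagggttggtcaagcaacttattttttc
Tlr2: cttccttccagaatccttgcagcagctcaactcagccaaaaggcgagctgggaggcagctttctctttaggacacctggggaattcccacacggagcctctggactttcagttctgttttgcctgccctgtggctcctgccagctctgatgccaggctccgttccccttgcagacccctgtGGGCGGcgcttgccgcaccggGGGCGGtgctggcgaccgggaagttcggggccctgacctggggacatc
Myd88: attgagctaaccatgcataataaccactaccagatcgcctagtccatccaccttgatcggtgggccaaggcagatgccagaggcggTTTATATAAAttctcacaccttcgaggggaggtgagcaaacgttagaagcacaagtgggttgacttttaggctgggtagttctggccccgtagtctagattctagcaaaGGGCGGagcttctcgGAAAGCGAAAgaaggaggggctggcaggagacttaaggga
The Tlr6 window at the lower coordinate holds 2 overlapping matches to the interferon-stimulated response element on the opposite strand, TTTCTCTTTC and TTTCACTTTC as printed. The Myd88 window holds 1 on its own strand, GAAAGCGAAA, 40 bases before the start. This element occurs in 2.98% of the 32851 windows of the same length over all genes. The Tlr6 window at the higher coordinate holds 3 matches to TATAAA on the opposite strand, 180, 150 and 109 bases before the start. The Myd88 window holds 2 that overlap, 164 and 160 bases before the start. Of all windows, 12.4% hold one. The Tlr2 window holds 2 GC boxes, 69 and 48 bases before the start, and the Myd88 window 1, against 32.7% of all windows. Neither E2F motif searched, TTTCCCGC (0.895% of all windows) and TTTGGCGC (0.417%), is in any of the 9 windows of the 7 genes. Only 1 form of the NF-kB motif was searched. That form is in the Tlr3 window only (0.356% of all windows), and the AP-1 motif TGANTCA is in that of Tlr9 only (6.75%). Other forms of the NF-kB site were not searched, so the other windows, that of Tlr2 among them, may hold one.

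Tlr5, the flagellin receptor, was near the detection limit in Rb deleted cultures and spread widely in Rb intact ones. It stood at -6.43, -5.84 and -6.57 in Rb deleted 1, 2 and 3, against -4.13, -5.38 and -2.77 in Rb intact 1, 2 and 3. It was well above background on 1 of 3 Rb deleted arrays, Rb deleted 2, and on all Rb intact arrays. The Rb intact arrays spanned an SD of 1.31, and the difference of -2.19 ± 0.63 (SE) missed the threshold (limma adjusted p = 0.0554). Since 2 of 3 Rb deleted signals were not well above background, the size of this difference is not well measured. The difference was -1.53 without Rb intact 3 and -2.83 without Rb intact 2 (adjusted p = 0.0198), and -1.22 with normexp background correction (adjusted p = 0.051).

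**Figure D2:**
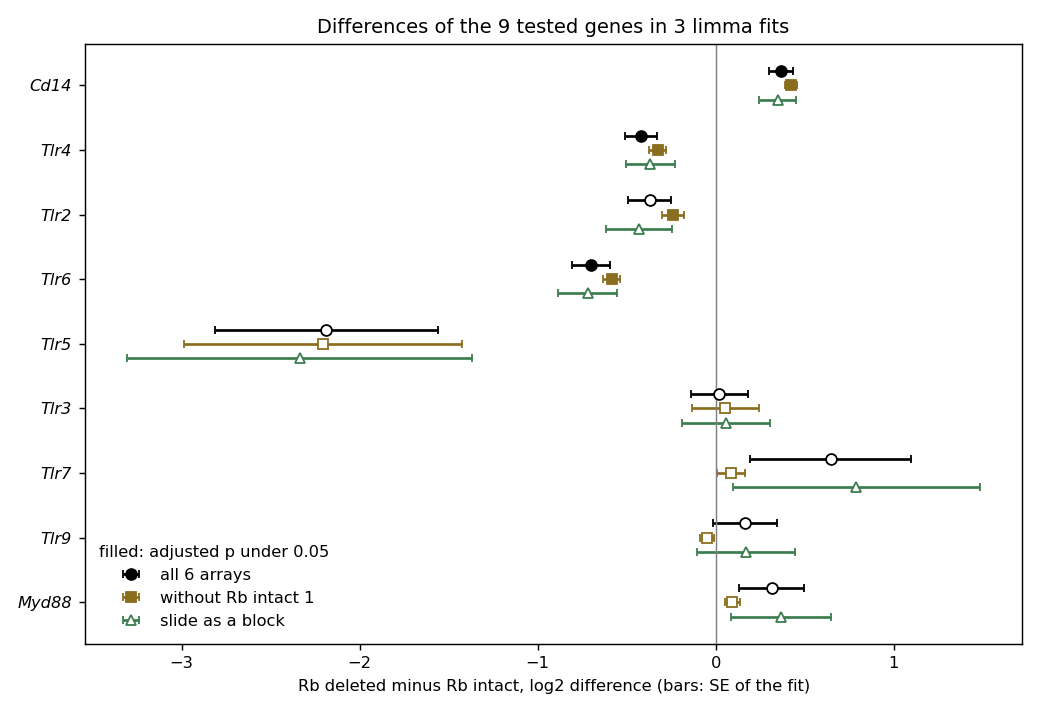
Difference of each tested gene (Rb deleted minus Rb intact, log2, horizontal axis; bars are the SE of the fit) with all 6 arrays, after Rb intact 1 was left out, and with slide as a block; filled symbols have a limma adjusted p under 0.05. Cd14 keeps a positive and Tlr4, Tlr2, Tlr6 and Tlr5 a negative difference in these 3 fits, no gene is filled with slide as a block, and the values of Tlr7 and Myd88 move towards 0 without Rb intact 1.

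When slide was added as a block, the differences were 0.35 for Cd14, -0.37 for Tlr4 and -0.72 for Tlr6, close to those above, and their adjusted p were 0.153, 0.234 and 0.0848. That fit compares the groups within the first slide, where Rb deleted 1 is the only Rb deleted array, and in it 4.85% of all tested genes and none of the 9 passed limma's threshold. On the first slide alone 1.12% of all tested genes and none of the 9 did so (2 of the 9, Cd14 and Tlr6, at an unadjusted p under 0.05), while with array weights 45.2% of all tested genes and 5 of the 9 did. At an unadjusted p under 0.05 the fit with slide as a block held 3 of the 9, Cd14, Tlr4 and Tlr6. With slide as a block and Rb intact 1 left out together, Cd14 (0.41, limma adjusted p = 0.0131), Tlr4 (-0.27, adjusted p = 0.0415) and Tlr6 (-0.60, adjusted p = 0.011) passed the threshold, as did Tlr7, and 22.2% of all tested genes did. This combined fit was added after the values were seen.

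The genes whose profiles over the 6 arrays were closest to those of Cd14, Tlr4 and Tlr6 were found by the mean absolute difference between log2 levels, each centred on the gene's own mean. The nearest to Cd14 were Tinf2, Brca2 and Ppp3cb, at distances of 0.01 to 0.02. Those nearest to Tlr4 were Zfp748, Fam171b and Syncrip, at 0.01 to 0.03, and those nearest to Tlr6 were Deptor, Gm10548 and Psen2, each at 0.03. The arrays of these comparisons share the group difference, and 13728 genes were searched for each.

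Myd88, Tlr9 and the brighter Tlr7 probe had a second pattern, in which Rb intact 1 alone was low. Myd88, the shared adaptor, stood at 1.01, 0.92 and 0.94 in Rb deleted 1, 2 and 3, against 0.20, 0.86 and 0.86 in Rb intact 1, 2 and 3. The groups did not overlap, but Rb intact 2 and 3 lay just under the Rb deleted arrays and Rb intact 1 far below. The difference was 0.31 ± 0.18 (SE, limma adjusted p = 0.266), and 0.09 without Rb intact 1 (adjusted p = 0.138). The Myd88 probe was also printed on 10 spots: these lay between 0.12 and 0.29 on Rb intact 1 and between 0.73 and 1.09 on the other 5 arrays, so every spot on Rb intact 1 was lower than every spot elsewhere. SDs of single spots lay between 0.05 and 0.07.

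**Figure D3:**
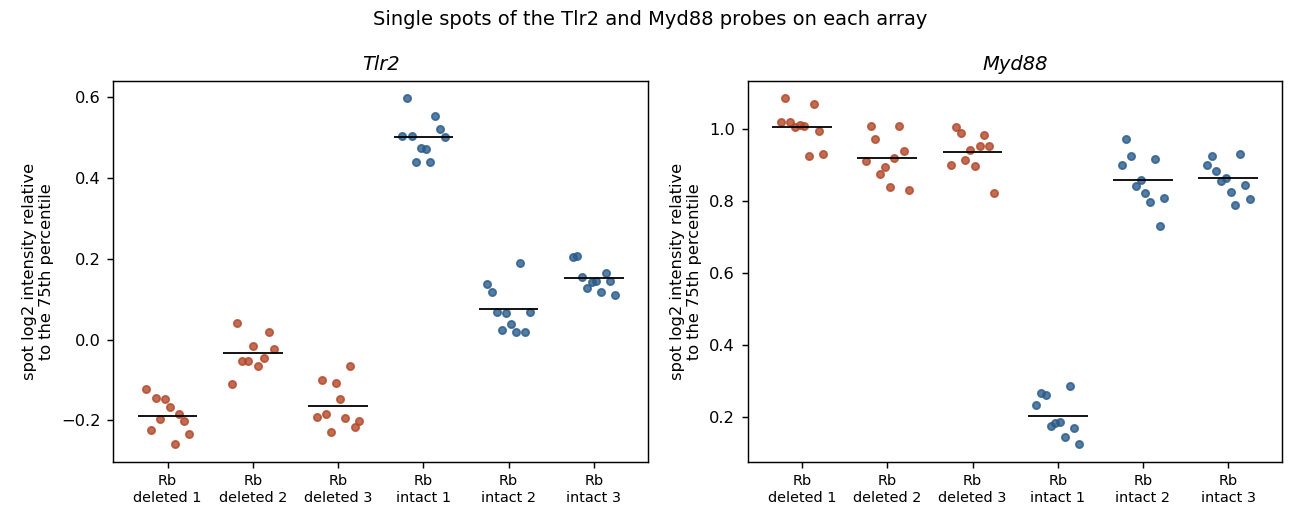
Single spots of the Tlr2 probe (left) and the Myd88 probe (right) on each array, as log2 intensity minus the 75th percentile of the array (vertical axis), with Rb deleted arrays in red to the left of Rb intact arrays in blue; lines are means over the 9 or 10 spots used. On Rb intact 1 all Tlr2 spots lie above, and all Myd88 spots below, those of the other 5 arrays.

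Tlr9, the endosomal receptor for unmethylated DNA, stood at 0.46, 0.48 and 0.41 in Rb deleted 1, 2 and 3, against -0.14, 0.49 and 0.51 in Rb intact 1, 2 and 3. Apart from Rb intact 1 the arrays lay close together, and the groups overlapped. The difference was 0.16 ± 0.18 (SE, limma adjusted p = 0.543), and it turned to -0.05 without Rb intact 1 (adjusted p = 0.351).

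Tlr7, the endosomal receptor for single-stranded RNA, had probes that disagreed on detection. The probe A_55_P2050932 was detected on every one of the 6 arrays, at -0.11, -0.31 and -0.34 in Rb deleted 1, 2 and 3, against -2.02, -0.36 and -0.33 in Rb intact 1, 2 and 3. The groups overlapped and Rb intact 1 lay far below the other arrays. The difference was 0.65 ± 0.45 (SE, limma adjusted p = 0.351), or 0.09 without Rb intact 1 (adjusted p = 0.427). The probe A_55_P2129047 was not well above background on any array, with levels from -7.40 to -6.05 in Rb deleted and from -7.78 to -7.19 in Rb intact cultures. Both probes carry the same RefSeq accession. Which of them reports Tlr7 RNA was not tested.

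The shift of Rb intact 1 from the mean of Rb intact 2 and 3 was -1.68 for Tlr7, -0.66 for Myd88 and -0.64 for Tlr9, and it was 0.39 for Tlr2, 0.34 for Tlr6 and 0.28 for Tlr4. Shifts of at least that size, in either direction, were found in 0.386% of tested genes for Tlr7, 4.42% for Myd88 and 4.69% for Tlr9, and in 17.2% to 31.2% for Tlr2, Tlr4 and Tlr6. The leukocyte integrin gene Itgam, which was well above background on all arrays, had a shift of -1.69, like that of Tlr7, with levels of 1.98, 1.77 and 1.75 in Rb deleted 1, 2 and 3, against 0.87, 2.54 and 2.57 in Rb intact 1, 2 and 3. The other leukocyte markers detected on all arrays shifted less, by -0.33 for Csf1r, -0.26 for Fcer1g, 0.10 for Aif1, 0.05 for Coro1a and 0.03 for Cd3e.

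Tlr3, the receptor for double-stranded RNA and the one that signals through Ticam1 in place of Myd88, stood at -3.33, -3.40 and -3.38 in Rb deleted 1, 2 and 3, against -3.32, -3.10 and -3.75 in Rb intact 1, 2 and 3. The Rb deleted arrays lay inside the range of the Rb intact arrays. The difference was 0.02 ± 0.16 (SE, limma adjusted p = 0.936).

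Markers of leukocytes, the cells best known for these receptors, were detected in part. Of 16 leukocyte and macrophage markers on the array, 6 were not well above background on any array, among them Ptprc, which encodes the pan-leukocyte antigen CD45, Lyz2, Laptm5, Tyrobp and Cx3cr1. Another 6 were well above background on all arrays, Itgam, Csf1r, Fcer1g, Aif1, Coro1a and Cd3e. Of the 6 tested, Aif1 (-0.36) and Coro1a (-0.49) fell (limma adjusted p = 0.0199 and 0.00431), where 10.4% of all tested genes fell. Fcer1g gave 0.68, Cd3e 0.08, Csf1r 0.04 and Itgam -0.16, none past the threshold. The median difference of the tested markers was -0.06. The summed level of the 16 markers, as linear intensity in units of the 75th percentile, ranged from 5.01 to 5.67 in Rb deleted and from 3.47 to 7.89 in Rb intact cultures, with the lowest sum in Rb intact 1. Itgam alone made up 52.7% to 76.8% of this sum, and without it the sum ranged from 1.64 to 1.86 in Rb deleted and from 1.64 to 1.94 in Rb intact cultures. The part of such cells in the differences above was not tested.

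The other genes of the pathway were counted by role, in lists that leave out the 10 genes above. Among the remaining mouse Toll-like receptors, Tlr8, Tlr11 and Tlr12 were not well above background on any array, and Tlr13 gave 0.08 ± 0.16 (SE, limma adjusted p = 0.736). Of 8 tested accessory and trafficking genes, 1 rose and none fell by limma (1 each way at an unadjusted p under 0.05), while 10.2% of all tested genes rose and 10.4% fell. Lrrc59, an endoplasmic reticulum protein involved in trafficking of endosomal receptors, rose by 0.28 ± 0.06 (SE, adjusted p = 0.0207). Unc93b1, which carries Tlr3, Tlr7 and Tlr9 to endosomes, gave 0.0095 ± 0.05 (SE, adjusted p = 0.914). Of the other adaptors, Ticam2, Sarm1 and Pik3ap1 did not pass the filter. Tirap, the bridge between Tlr2 or Tlr4 and Myd88, gave 0.19 ± 0.08 (SE, adjusted p = 0.145) and Ticam1 -0.11 ± 0.07 (SE, adjusted p = 0.325).

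Downstream, of 21 kinase and ubiquitin ligase genes 2 rose and 2 fell (10.2% and 10.4% of all tested genes did), with a median difference of -0.04. Ikbke, a kinase that activates interferon regulatory factors, stood at 0.04, 0.16 and 0.18 in Rb deleted 1, 2 and 3, against 0.65, 0.73 and 0.73 in Rb intact 1, 2 and 3, and fell by 0.57 ± 0.06 (SE, limma adjusted p = 0.00227). The ligase gene Peli2 fell by 0.54 ± 0.07 (SE, adjusted p = 0.00413) and its relative Peli1 rose by 0.29 ± 0.06 (SE, adjusted p = 0.0187). Chuk, the IKK-alpha kinase, rose by 0.20 ± 0.05 (SE, adjusted p = 0.0407). Irak1, Irak2, Irak4 and Traf6, which act directly after Myd88, did not pass the threshold, with adjusted p from 0.328 to 0.497. With slide as a block Ikbke alone of the 21 passed it, against 4.85% of all tested genes.

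Of 10 tested transcription factor genes of the pathway, 5 rose and none fell by limma, also at an unadjusted p under 0.05, with a median difference of 0.18. Over all tested genes 10.2% rose and 10.4% fell. Fos rose by 0.73 ± 0.06 (SE, limma adjusted p = 0.000869) and Jun, its AP-1 partner, by 0.39 ± 0.07. Irf5, an interferon regulatory factor that binds Myd88, rose by 0.78 ± 0.11 (SE, adjusted p = 0.00596) and Irf7 by 0.36 ± 0.07. Nfkb2 rose by 0.20 ± 0.05 (SE, adjusted p = 0.0478), while Nfkb1, Rela and Relb did not pass the threshold. With slide as a block 1 of the 10, Fos, passed it, against 4.85% of all tested genes.

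Of 17 negative regulators, 2 rose and 1 fell, where 20.6% of all tested genes passed the threshold either way, with a median difference of -0.06. Atf3, a transcriptional repressor induced by Toll-like receptor signals, rose by 1.28 ± 0.10 (SE, 2.43-fold, limma adjusted p = 0.000732). Il1rl1, the ST2 receptor, rose by 0.39 ± 0.06 (SE, adjusted p = 0.0101). Tnfaip3, the deubiquitinase A20 that restrains NF-kB, stood at 0.03, 0.18 and 0.17 in Rb deleted 1, 2 and 3, against 0.83, 0.54 and 0.61 in Rb intact 1, 2 and 3, and fell by 0.53 ± 0.09 (SE, adjusted p = 0.0113). With slide as a block, where 4.85% of all tested genes passed, Atf3 alone of the 17 did, and without Rb intact 1, where 37.6% of all genes were called, 3 rose and 3 fell. Of 4 tested interleukin-1 family receptors, which also signal through Myd88, Il18rap rose by 0.26 ± 0.07 (SE, adjusted p = 0.038). Il1r1 gave -0.22 ± 0.08 (SE, adjusted p = 0.0944).

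**Figure D4:**
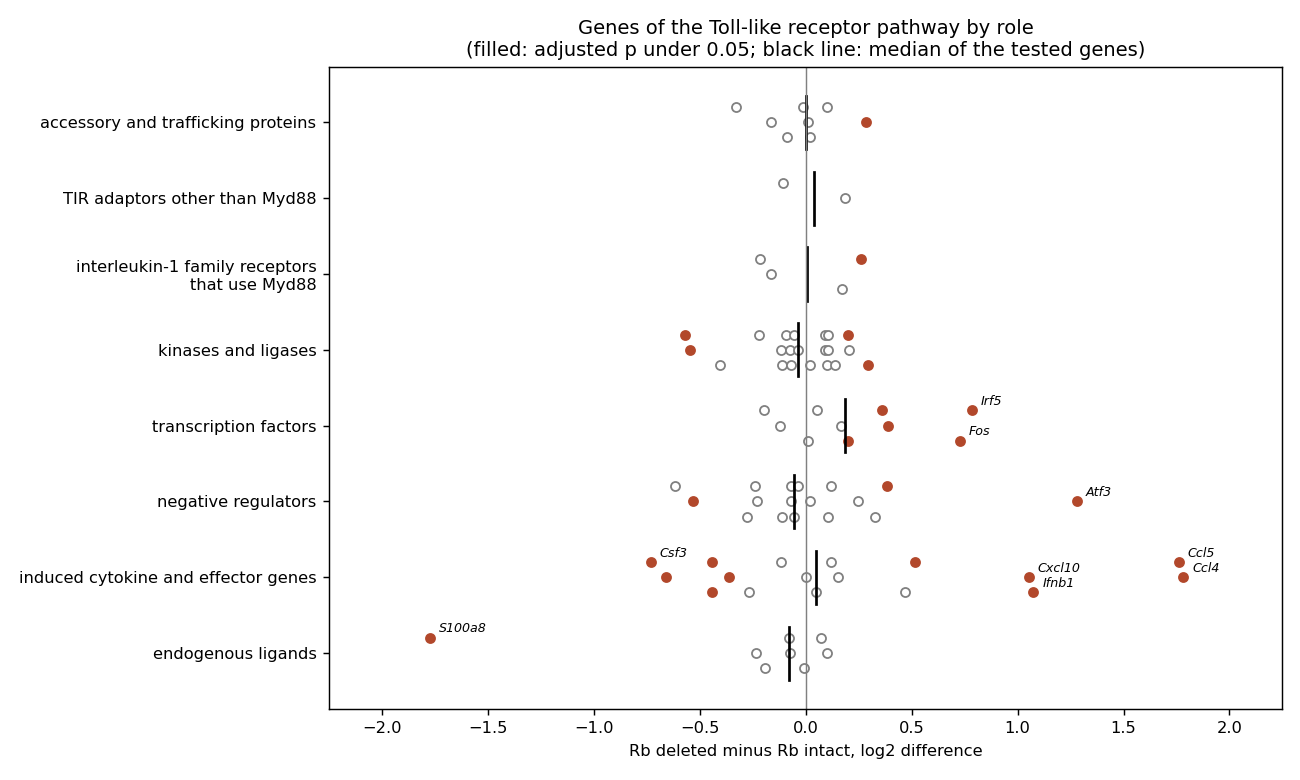
Difference of each tested gene of the Toll-like receptor pathway (Rb deleted minus Rb intact, log2, horizontal axis) by role; filled points have a limma adjusted p under 0.05 over all tested genes, and black lines are medians of the tested genes of a list. Of the 10 transcription factors 5 are filled, all above 0, and the 17 induced cytokine and effector genes have 5 filled points on each side of 0.

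The genes that Toll-like receptors are known to induce moved both ways. Of 17 tested, 5 rose and 5 fell, against 10.2% and 10.4% of all tested genes. Another 8 on the array, Tnf and Il1b among them, were not well above background on any array. The chemokine gene Ccl5 stood at 3.93, 4.01 and 3.94 in Rb deleted 1, 2 and 3, against 2.19, 2.14 and 2.27 in Rb intact 1, 2 and 3, and rose 3.39-fold (limma adjusted p = 0.000149). Ccl4 rose 3.44-fold, Cxcl10 rose 2.07-fold and Il6 rose 1.43-fold. The interferon gene Ifnb1 rose by 1.07 ± 0.14 (SE, adjusted p = 0.00401), and its signal was well above background in 2 of 3 Rb intact cultures. The granulocyte growth factor gene Csf3 fell 1.66-fold, the acute phase gene Saa3 fell 1.58-fold, and Cd40 and the chemokine gene Cxcl1 each fell 1.36-fold. Lcn2, an iron-binding antibacterial protein, fell by 0.36 ± 0.08 (SE, adjusted p = 0.0288). With slide as a block (4.85% of all tested genes called) Ccl4, Ccl5 and Cxcl10 rose and Saa3 fell, and without Rb intact 1 (37.6% called) 7 rose and 6 fell.

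Of 8 tested genes for endogenous ligands, which Toll-like receptors are reported to sense, S100a8 alone passed the threshold, against 20.6% of all tested genes. It stood at -2.10, -2.18 and -2.35 in Rb deleted 1, 2 and 3, against -0.34, -0.58 and -0.39 in Rb intact 1, 2 and 3, and fell 3.42-fold (limma adjusted p = 0.000285). Its partner S100a9 was not well above background on any array. The matrix gene Fn1 gave -0.19 ± 0.07 (SE, adjusted p = 0.091).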

How the data were processed

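Total RNA was labelled with Cy3 and hybridised to one-colour Agilent arrays, per the labels' protocols. The authors deposited scanner files from Agilent Feature Extraction (version 10.7.3.1 per the submitters' processing notes, but 11.0.1.1 per the file headers) with background-corrected spot intensities and detection flags, and a log2 table. The deposited log2 values equalled log2 of the scanner intensity minus a constant per array, within 0.01 for 100% of its 22164 probes (column medians -0.52 to -0.49).

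For each array, log2 processed intensity was averaged over unflagged spots of a probe and the 75th percentile over non-control probes was subtracted. Probes were named through their RefSeq accession and the RefSeq table (GRCm38.p6): 27427 have 1 gene and 12002 are unnamed. The brightest passing probe stood for each gene. The test was limma's moderated linear model (limma 3.58.1, R 4.3.3) without covariates, with Benjamini-Hochberg adjustment over 13729 genes. Genes named outside the 10 are Rb1, the called genes of each pathway list (where under 2 were called, also those with the smallest p, up to 2) and the 3 nearest profiles of each called gene; other uncalled genes were chosen after their values were seen. Members and lists were chosen with earlier results of these data known. Scaling, filter, background correction, probe rule, weights, blocks and left-out arrays were varied. Fits were tested on simulated data with independent noise, without a slide effect or an array that lies apart. A simulated log2 change of 0.5, larger than the differences of Cd14 and Tlr4, was found in 65.1% of changed genes. Of the simulated calls, 3.16% were false. Each simulation changed 200 of 13729 genes, while 2829 were called in the data. The p that passes the adjustment depends on how many genes change, so the 65.1% does not measure how often such changes are found in these data. The number of arrays limits the precision. Same-numbered arrays had deviations from their group means that correlated at -0.03, -0.05 and 0.02 over 13712 genes. Deviations from a mean of 3 arrays are not independent, and Rb intact 1 lay apart. These values therefore cannot settle whether replicate numbers pair the arrays.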

Additional observations from a re-analysis of the deposited data

How the results depend on the processing

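Over 20 alternative settings, Tlr6 fell past the threshold in 18, Tlr4 in 13 and Cd14 rose past it in 12, with no change of direction. Differences ranged from -0.76 to -0.57 for Tlr6, -0.48 to -0.27 for Tlr4 and 0.23 to 0.42 for Cd14. Of the 9 genes, 5 were called with array weights (limma, 45.2% of all genes), and 0 with slide as a block or on the first slide alone, where 3 and 2 had an unadjusted p under 0.05. Leaving out 1 array gave 1 to 4 called. Over all genes, where all arrays gave 2829 calls, limma gave 1484 with no filter on dim probes, 6212 with array weights, 1638 with the replicate block (11.9%), 665 with slide as a block, 153 on the first slide alone and 1243 to 5165 without 1 array. With the replicate block, Cd14 missed the threshold (adjusted p = 0.0524) while Tlr4 (0.0386) and Tlr6 (0.0238) passed it. Not every array correlated best with its own number, and whether the numbers pair the arrays was not settled. Cd14 also missed it with normexp background correction (0.23, adjusted p = 0.0743), and Tlr4 with no filter (adjusted p = 0.073). Tlr5 passed in 5 of 18 settings and Tlr2 in 2 of 20. Directions turned for Tlr3 without 1 array (-0.16 to 0.17) and for Tlr9 without 1 array (-0.0504 to 0.277), with array weights (-0.0333) and with slide as a block and no Rb intact 1 (-0.0440), none past the threshold; the cause was not tested. The Tlr5 difference ranged from -2.83 to -1.22. Signals close to background limit what can be said of Tlr1 and Tlr5.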
